A study of Homo sapiens with 6 samples.

Results

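Proteins bound for secretion, for membranes or for the compartments between them enter the endoplasmic reticulum (ER) and are carried to and from the Golgi in coated vesicles. The 50 genes described here encode that machinery and were chosen by symbol: the signal recognition particle and its receptor, the translocon with its TRAP complex, signal peptidase, oligosaccharyl transferase, the COPII and COPI coats and the KDEL receptors. All 50 were found among the 21429 genes of the deposited table, and all 50 were among the 15327 genes tested, those with a mean level of at least 3 over the 6 libraries. RNA was sequenced from U251, an established human glioma line, after knockdown of the ribosomal protein gene RPL13, whose product sits in the large subunit. The first group received an siRNA against RPL13 (siRPL13, 3 libraries) and the other a control siRNA (siNC, 3 libraries), both by electroporation with 2.5 µL of siRNA at 20 µM. Cells of both groups stably carried mutant amyloid precursor protein (APP, K670N/M671L), whose expression was induced in both with 1 µg/mL doxycycline from 24 h, and RNA was taken at 72 h. No group without mutant APP or without doxycycline was analysed here, and the labels do not say whether the line is a single clone. The labels call the libraries biological replicates without saying how the cultures were separated, so the p-values measure the spread between these libraries.

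A ribosome that starts to make a protein with a signal sequence is bound by the signal recognition particle, which docks it at its receptor on the ER membrane. The growing chain passes through the SEC61 channel, signal peptidase removes the signal sequence and oligosaccharyl transferase attaches N-linked glycans. COPII coats then form vesicles that leave the ER, while COPI coats form vesicles that return from the Golgi, carrying ER residents that KDEL receptors have bound by their C-terminal signal. APP itself is made on this route, since it is a membrane protein that enters the ER and travels through the Golgi to the cell surface. In the unfolded protein response, the transcription factors XBP1 and ATF6 are known to raise transcription of many of these genes.

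Values are regularized-log (rlog) levels on the log2 scale, as deposited, and each difference is the siRPL13 mean minus the siNC mean. The targeted gene, RPL13, had 13.03, 13.12 and 14.09 in siRPL13 replicates 1 to 3, against 14.05, 14.16 and 14.18 in siNC replicates 1 to 3. The library labelled siRPL13 replicate 3 thus lay inside the siNC range and did not show the knockdown, so results are given for all 6 libraries and for the 5 libraries without it. Wherever 3 siRPL13 values are listed, the last is that of this library. The difference of RPL13 was -0.72 ± 0.24 in the 6 libraries (SE; limma, adjusted p = 0.589). In the 5 libraries it was -1.06 ± 0.06 (SE), a description only, since the library left out was chosen by its RPL13 level. The library labelled siRPL13 replicate 3 also stood apart in other genes: STMN2, a neuronal marker, was at 7.71 in it, against 4.61 to 4.66 in the other 5 libraries. Interferon-stimulated genes, 20 of them measured, summed to 15.88, 16.28 and 17.91 (log2) in siRPL13 replicates 1 to 3, against 17.34, 17.56 and 16.60 in siNC replicates 1 to 3, and 19 of the 20 fell in the 5 libraries. Of the 2 endothelial markers measured CDH5 fell by 0.46, and their summed level was 6.49 to 6.81 in siRPL13 and 6.81 to 6.93 in siNC. The part of these genes in the members' differences was not tested. Of the astroglial markers, VIM, NES, GFAP and SOX2 had mean rlog values above 13 and S100B had 5.64. CD68, ITGAM, CDH1 and RBFOX3 were near 0, but other markers of leukocytes and neurons were not, with mean rlog values of 3.62 for CD14, 3.71 for SYP and 10.45 for MAP2. Of the 7 astroglial markers tested, 2 fell in the 5 libraries (limma, adjusted p under 0.05) and 0 rose, beside 10.7% and 8.42% of all genes tested. These were VIM, by 0.31, and NES, by 0.34. Differences were negative for 5 of the 7 and positive for 2, CD44 (0.07) and SOX2 (0.08). The median rlog lay between 9.12 and 9.13 in all 6 libraries, and read depth is unknown.

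A short sequence was present in the promoters of some of these genes. A RefSeq promoter window, from 250 bases before to 50 after a transcription start (build GRCh38.p14), was available for 44 of the 50 members, with 57 windows in all. The letters CCACGTC, the core of sites known to be bound by XBP1, were searched on both strands. They lay in a window of 20 of the 44 members (45.5%), against 1043 of 27305 genes with a window of the same length (3.82%) and 609 of the 10775 such genes whose mean rlog reached 3 (5.65%). Of the members, 10 had windows on more than 1 start, and a match in any window of a gene was counted, as for all genes. One match per gene, the nearest to a start, is shown with 8 bases on either side, so that the flanks can be compared. The match of SSR3 belongs to a start inside the gene, and the window at its most upstream start holds none. Capitals mark the core, written on the strand that reads CCACGTC.
COPA: ggacgcctCCACGTCagcgaccc
COPB1: acccccttCCACGTCagccaagg
COPB2: cggaagttCCACGTCagtcagtc
COPG1: ccgactggCCACGTCgcccagcg
COPZ1: ttgcggctCCACGTCggcaccag
ARCN1: gccccaagCCACGTCttcaaccg
SEC13: gggagctgCCACGTCcgagacct
SEC23A: cgcctctgCCACGTCaagaggag
SEC24A: cctcgccgCCACGTCaccgactc
SEC24C: ttcttctgCCACGTCtgcatttc
SAR1A: cggcgctgCCACGTCtcgcgcgg
KDELR3: cgccctggCCACGTCaccgcccg
SRP19: tcttcatgCCACGTCagagacta
SRPRB: gtgcagggCCACGTCgcttttgc
SEC62: tcctcgctCCACGTCagagggaa
SEC63: tgcgctcgCCACGTCtcccttag
SSR1: ctgagcagCCACGTCggcggcgg
SSR3: gataacagCCACGTCagcaagga
SSR4: gggaggggCCACGTCagtgctgc
SPCS2: ccccgcggCCACGTCctctgact

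The core lay between 200 bases before and 25 bases after the start in these stretches. In 10 of the 20 genes an A follows it, which completes the reverse complement of TGACGTGG, the unfolded protein response element bound by XBP1. Every match of that element therefore holds the core on the other strand, and 10 of 44 members (22.7%) held it, against 253 of 27305 genes (0.927%) and 134 of the 10775 genes (1.24%). TGACGTCA, the cyclic AMP response element, was in no member's window and in 614 of 27305 genes (2.25%). The bipartite ER stress element, CCAAT and CCACG parted by 9 bases, was in 0 of 44 members and in 25 of 27305 genes (0.092%). Its second form, ATTGG and CCACG parted by 1 base, was in 0 of 44 and in 19 of 27305 (0.07%). The median GC content was 66% over the members' windows and 58.7% over all windows, and its part in these shares was not tested. A match describes letters in a window and not binding.

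By role, the core was in the windows of 6 of 8 COPI coat genes, 3 of 4 TRAP genes, 5 of 9 COPII coat genes and the 1 receptor gene of the signal recognition particle with a window. It was also in 1 of 2 KDEL receptors, 2 of 6 translocon genes, 1 of 4 signal peptidase genes and 1 of 6 genes of the particle itself. None of the 4 oligosaccharyl transferase genes with a window held it. The groups are small, and differences between them were not tested. COPA, KDELR3 and KDELR1, described below, are shown in longer stretches, from 100 bases before to 30 after the start, where capitals mark TGACGTGG or its reverse complement. COPA is chr1:160343221-160343350 on the minus strand, KDELR3 is chr22:38467996-38468125 on the plus strand, and KDELR1, which holds neither, is chr19:48391522-48391651 on the minus strand.
COPA: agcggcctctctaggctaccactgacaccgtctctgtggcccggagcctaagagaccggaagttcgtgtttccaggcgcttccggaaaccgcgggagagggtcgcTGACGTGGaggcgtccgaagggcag
KDELR3: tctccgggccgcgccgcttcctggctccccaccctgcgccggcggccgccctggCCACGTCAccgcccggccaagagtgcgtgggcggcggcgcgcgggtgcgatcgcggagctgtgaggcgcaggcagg
KDELR1: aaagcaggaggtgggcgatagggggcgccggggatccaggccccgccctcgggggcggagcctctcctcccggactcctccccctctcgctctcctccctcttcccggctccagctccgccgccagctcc

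The comparison asked which of these transcripts differ after RPL13 knockdown. In the 5 libraries 11 of the 50 members passed the threshold of 0.05 (limma, two-sided, Benjamini-Hochberg over all genes tested), which is 22% of the members beside 19.1% of all genes tested. SRP68, SRP72 and COPA rose (3 of 50, beside 8.42% of all genes), and SRPRA, SSR2, SEC11A, RPN1, SEC24C, SEC24D, KDELR1 and KDELR3 fell (8 of 50, beside 10.7%). The share called was thus close to that of all genes in both directions. In bulk RNA, fewer cells with a transcript and less of it per cell cannot be told apart. All changes were small. No member differed by 2-fold, 41 of 50 differed by less than 0.2 on the log2 scale, and the members' median difference was -0.02, beside -0.0014 for all genes tested. Under quantile scaling the same comparison called 3 higher and 5 lower, beside 18.8% of all genes tested. The members' median was then 0.02, of the opposite sign. Without siRPL13 replicate 1 or 2 a single siRPL13 library was left, and most of the 11 calls were lost each time. The difference of KDELR3 was -0.43 and -0.37 in these fits. Without siNC replicate 1 the fit called 7 higher and 10 lower, beside 24.5% of all genes tested.

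With all 6 libraries limma called 0 members and 0 genes in all (0%), and the smallest adjusted p was 0.589. An unadjusted p under 0.05 was reached by 4 members, SEC11A, SEC23A, SEC24A and KDELR3, and by 8.32% of all genes tested. The library labelled siRPL13 replicate 3 lay below the range of the siNC libraries in 25 members, within it in 19 and above it in 6. Among all 15327 genes tested it lay below that range in 4270, within it in 6544 and above it in 4513. For 10 of the 11 genes called in the 5 libraries it lay within the siNC range or past its opposite end, and SEC11A was the exception. The groups of all 6 libraries did not overlap for 8 members, all lower in siRPL13, beside 6.9% of all genes tested: SRPRB, SEC61G, SEC11A, RPN2, SEC23A, SEC24A, COPG2 and KDELR2. For higher levels this count was 0 of 50, beside 6.92%. Of those 8, SEC11A alone also passed the threshold in the 5 libraries. In the 5 libraries the groups did not overlap for 10 members higher in siRPL13, beside 24.7% of all genes, and for 19 lower, beside 26.6%, and an unadjusted p under 0.05 was reached by 17 members, beside 33.4%.

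**Figure D1:**
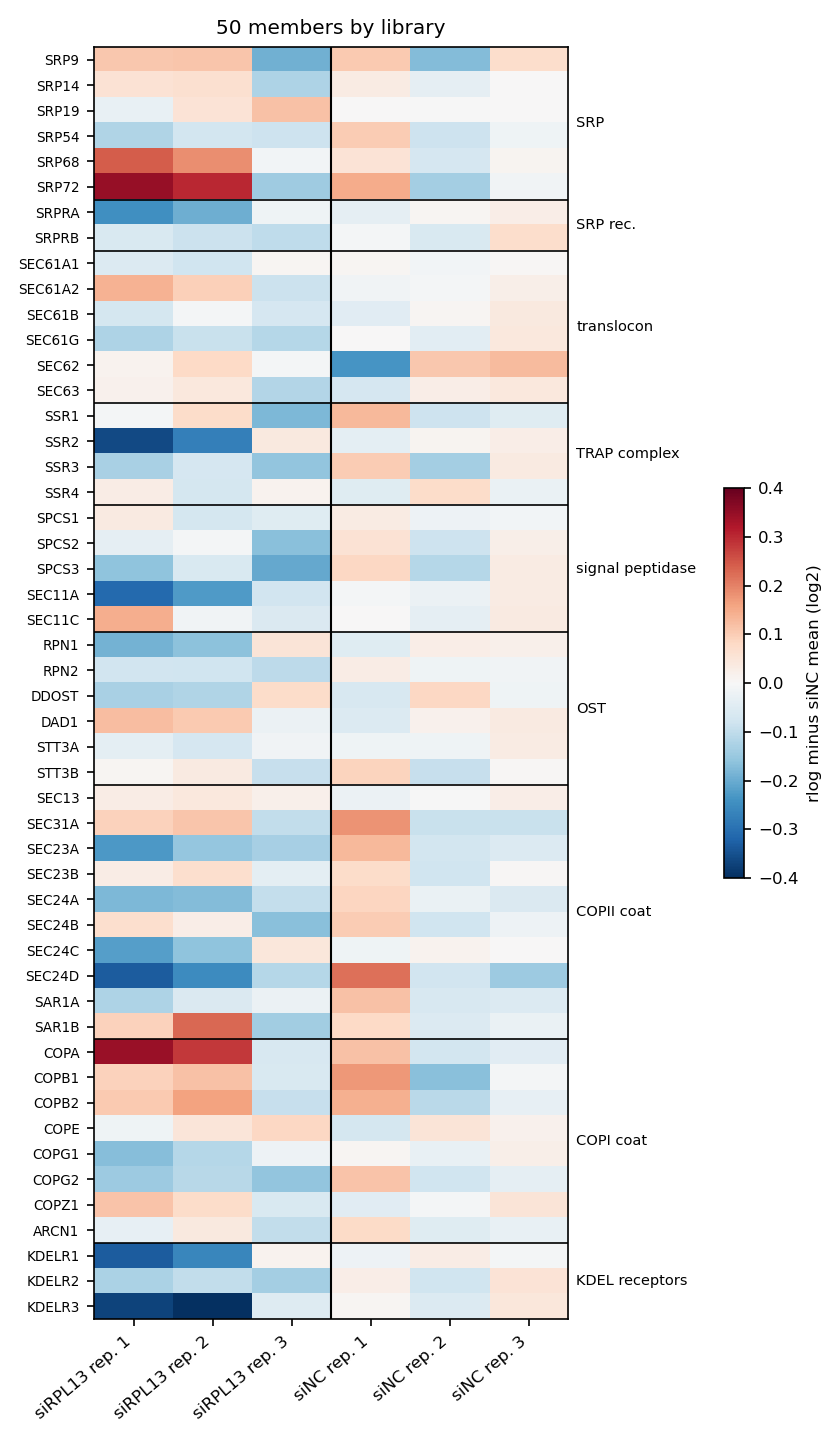
Level of each of the 50 members (rows, in groups by role) in each of the 6 libraries (columns, siRPL13 left of siNC), as rlog minus the mean of the siNC libraries on the log2 scale; colours reach their full depth at 0.4 on either side of 0. SRP72, COPA and SRP68 are above and KDELR3, KDELR1, SSR2 and SEC11A below the siNC mean in siRPL13 replicates 1 and 2, while the third siRPL13 column does not follow those columns for most of these genes.

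**Figure D2:**
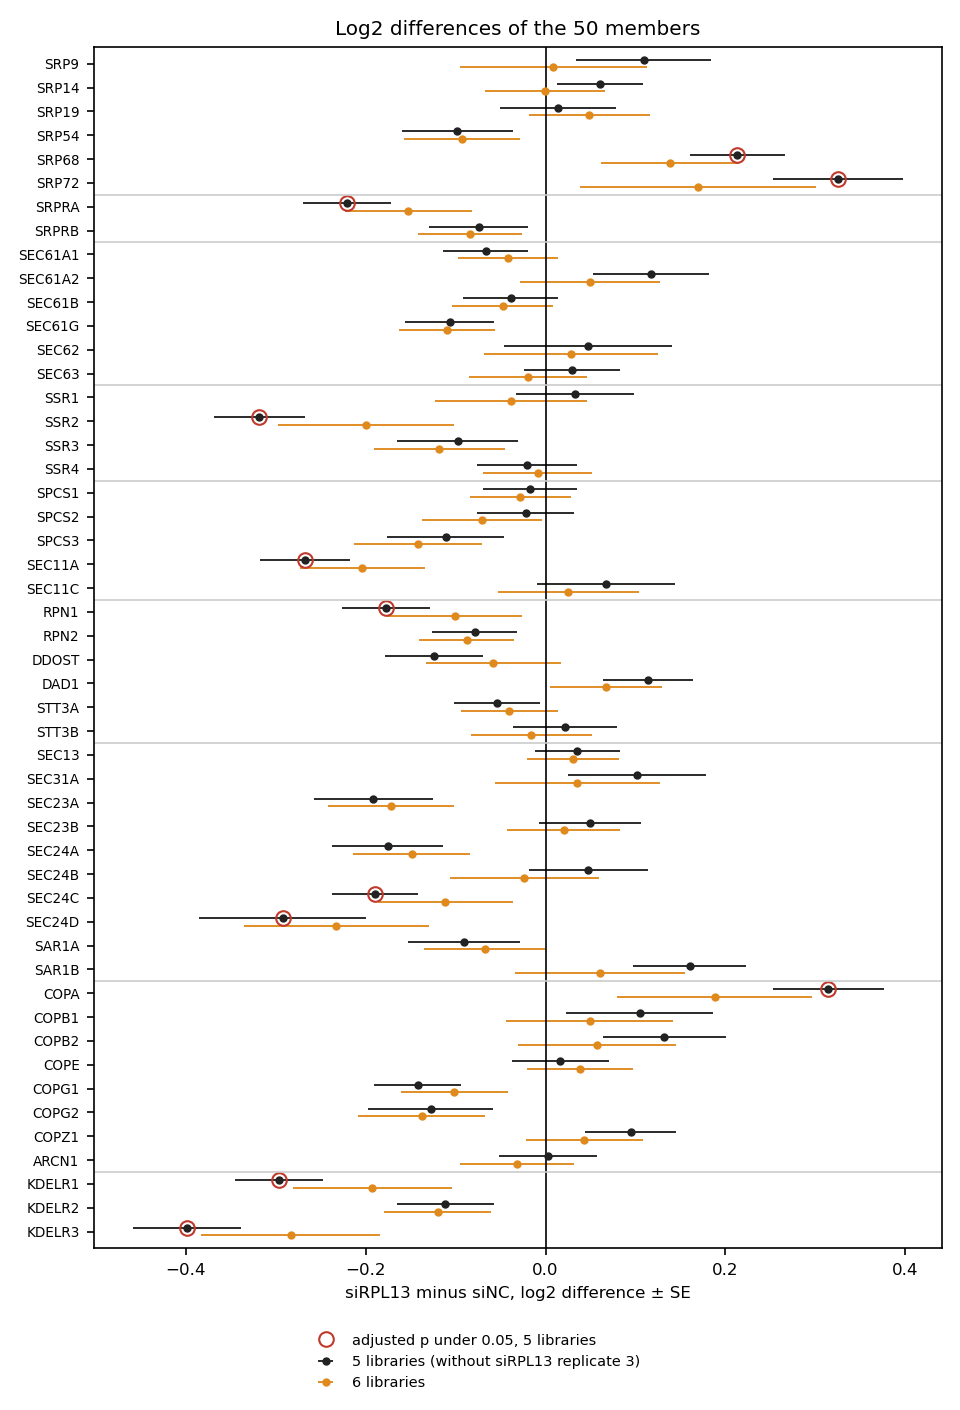
Log2 difference (siRPL13 minus siNC, horizontal axis) of each member with its SE from limma, for 5 libraries without the library labelled siRPL13 replicate 3 (black) and for all 6 libraries (orange). Rings mark the 11 members past the threshold in the 5 libraries, and no member passed it in the 6.

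The signal recognition particle was the group with the most members higher, 2 of 6 (33.3%), beside 8.42% of all genes tested. For the role groups that follow, 8.42% of all genes rose and 10.7% fell in the 5 libraries. The groups are small, and these counts were not tested against those shares. SRP72 and SRP68 rose, and the other 4 proteins of the particle did not pass the threshold. SRP72 and SRP68 bind each other on the RNA of the particle, in the part that meets the signal sequence and the receptor. SRP72 (chromosome 4, 56467336 to 56503681, plus strand, GRCh38) stood at 13.57, 13.52 and 13.07 in siRPL13 replicates 1 to 3, against 13.37, 13.08 and 13.20 in siNC replicates 1 to 3. Both siRPL13 libraries with lowered RPL13 were above all siNC libraries, and the library labelled siRPL13 replicate 3 was below them all. Its difference was 0.33 ± 0.07 in the 5 libraries (SE; limma, adjusted p = 0.0116), or 125% of siNC, and 0.17 ± 0.13 in the 6.

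SRP68 (chromosome 17, 76038775 to 76072653, minus strand) stood at 12.17, 12.11 and 11.92 in siRPL13 replicates 1 to 3, against 11.98, 11.86 and 11.94 in siNC replicates 1 to 3. The first pair was again above every siNC library, and the library labelled siRPL13 replicate 3 was inside the siNC range. SRP68 differed by 0.21 ± 0.05 in the 5 libraries (limma, adjusted p = 0.0192) and by 0.14 ± 0.08 in the 6. SRP9 and SRP14, which pause the ribosome, differed by 0.11 and 0.06 in the 5 libraries. SRP54, the GTPase that holds the signal sequence, differed by -0.10 and SRP19, needed to assemble the particle, by 0.01. The processed pseudogene SRP9P1 had a mean rlog of 7.85, so that reads of SRP9 are uncertain to that extent.

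Of the 2 receptor subunits, SRPRA fell and SRPRB did not pass the threshold. SRPRA, the alpha subunit that meets the particle, lies on chromosome 11 (126262919 to 126269144, minus strand). It stood at 12.80, 12.85 and 13.03 in siRPL13 replicates 1 to 3, against 13.01, 13.06 and 13.07 in siNC replicates 1 to 3. The first pair was below every siNC library and the third fell among them. SRPRA fell by 0.22 ± 0.05 in the 5 libraries (limma, adjusted p = 0.0110) and differed by -0.15 ± 0.07 in the 6. It shares 90 exon bases with FOXRED1 on the opposite strand, which fell by 0.24, and the sources used here do not say whether counting used strand. SRPRB, the membrane-anchored beta subunit, stood lower in all 3 siRPL13 libraries than in any siNC library, with a difference of -0.07 ± 0.06 in the 5 libraries (limma, adjusted p = 0.375).

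None of the 6 translocon genes passed the threshold, and their median difference was -0.0045. SEC61A1, the main form of the channel itself, stood at 13.82, 13.79 and 13.88 in siRPL13 replicates 1 to 3, against 13.88, 13.86 and 13.87 in siNC replicates 1 to 3, a difference of -0.07 ± 0.05 in the 5 libraries. SEC61G, the gamma subunit, was lower in every siRPL13 library than in any siNC library, with 12.29, 12.33 and 12.30 against 12.42, 12.37 and 12.46 in siNC replicates 1 to 3, but its difference of -0.11 ± 0.05 in the 5 libraries did not pass (limma, adjusted p = 0.154). SEC61B, SEC62 and SEC63, of which the last pair serves chains that arrive after synthesis, differed by -0.04, 0.05 and 0.03. The paralog SEC61A2 stood at 8.94, 8.89 and 8.71 in siRPL13 replicates 1 to 3, against 8.79, 8.79 and 8.82 in siNC replicates 1 to 3, a difference of 0.12 ± 0.06 in the 5 libraries (limma, adjusted p = 0.230).

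Of the 4 TRAP genes, whose complex sits beside the channel and helps some signal sequences to insert, SSR2 alone passed the threshold. SSR2 encodes the beta subunit (chromosome 1, 156009048 to 156020959, minus strand). It stood at 12.35, 12.43 and 12.75 in siRPL13 replicates 1 to 3, against 12.67, 12.72 and 12.74 in siNC replicates 1 to 3. The library labelled siRPL13 replicate 3 was above all siNC libraries, while the other siRPL13 libraries were below them. The difference was -0.32 ± 0.05 in the 5 libraries (limma, adjusted p = 0.00256), or 80.2% of siNC, and -0.20 ± 0.10 in the 6. The other subunits differed by 0.03 (SSR1), -0.10 (SSR3) and -0.02 (SSR4), so a fall of SSR2 was not accompanied by a called change of its partners.

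Among the 5 signal peptidase genes SEC11A fell and no other passed. SEC11A and SEC11C are the alternative catalytic subunits. SEC11A (chromosome 15, 84669538 to 84716716, minus strand) stood at 11.83, 11.91 and 12.06 in siRPL13 replicates 1 to 3, against 12.13, 12.11 and 12.17 in siNC replicates 1 to 3. All 3 siRPL13 libraries were below all siNC libraries, the only called member of which that holds. It fell by 0.27 ± 0.05 in the 5 libraries (limma, adjusted p = 0.00535), and its difference in the 6 was -0.20 ± 0.07 (limma, adjusted p = 0.589; unadjusted p = 0.0174). SEC11C stood at 8.33, 8.17 and 8.12 in siRPL13 replicates 1 to 3, against 8.18, 8.14 and 8.22 in siNC replicates 1 to 3, with overlapping groups. The accessory subunits SPCS1, SPCS2 and SPCS3 differed by -0.02, -0.02 and -0.11 in the 5 libraries. The pseudogene SPCS2P4 had a mean rlog of 8.85.

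Of the 6 oligosaccharyl transferase genes, RPN1 passed the threshold. RPN1, or ribophorin I, presents some membrane proteins to the catalytic subunit (chromosome 3, 128619970 to 128681075, minus strand). It stood at 13.05, 13.08 and 13.29 in siRPL13 replicates 1 to 3, against 13.19, 13.27 and 13.26 in siNC replicates 1 to 3, with the library labelled siRPL13 replicate 3 highest of all 6. The difference was -0.18 ± 0.05 in the 5 libraries (limma, adjusted p = 0.0294), and it missed the threshold in 7 of 13 alternative settings. In the 6 libraries the difference was -0.10 ± 0.07. RPN2, DDOST and DAD1, further subunits common to both forms of the enzyme, differed by -0.08, -0.12 and 0.11. The catalytic subunit STT3A, which works at the channel, stood at 13.59, 13.56 and 13.62 in siRPL13 replicates 1 to 3, against 13.62, 13.62 and 13.67 in siNC replicates 1 to 3. STT3B, the catalytic subunit that glycosylates sites missed by the first, stood at 12.64, 12.67 and 12.54 in siRPL13 replicates 1 to 3, against 12.72, 12.54 and 12.64 in siNC replicates 1 to 3. Their differences of -0.05 and 0.02 in the 5 libraries were about 1 SE or less.

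The COPII coat had 2 of its 10 genes lower (20%, beside 10.7% of all genes) and none higher in the 5 libraries. Both are SEC24 paralogs, which choose the cargo. SEC24C (chromosome 10, 73744384 to 73772161, plus strand) stood at 12.78, 12.84 and 13.04 in siRPL13 replicates 1 to 3, against 12.98, 13.01 and 13.00 in siNC replicates 1 to 3. The library labelled siRPL13 replicate 3 was again the highest of all. SEC24C fell by 0.19 ± 0.05 in the 5 libraries (limma, adjusted p = 0.0196) and differed by -0.11 ± 0.07 in the 6. SEC24D (chromosome 4, 118722823 to 118838683, minus strand) stood at 10.09, 10.17 and 10.31 in siRPL13 replicates 1 to 3, against 10.64, 10.35 and 10.28 in siNC replicates 1 to 3. Its siNC libraries were spread widely, and the difference of -0.29 ± 0.09 in the 5 libraries was at the threshold (limma, adjusted p = 0.0491). SEC24D missed the threshold in 9 of 13 alternative settings, and its difference in the 6 libraries was -0.23 ± 0.10.

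The other SEC24 paralogs did not pass. SEC24A stood at 9.93, 9.94 and 10.01 in siRPL13 replicates 1 to 3, against 10.20, 10.08 and 10.05 in siNC replicates 1 to 3, so that its groups did not overlap, with a difference of -0.18 ± 0.06 in the 5 libraries (limma, adjusted p = 0.0684). SEC24B stood at 9.88, 9.84 and 9.64 in siRPL13 replicates 1 to 3, against 9.91, 9.73 and 9.79 in siNC replicates 1 to 3. SEC23A and SEC23B are alternative partners of SEC24 that activate the GTPase of the coat. SEC23A stood at 11.32, 11.39 and 11.42 in siRPL13 replicates 1 to 3, against 11.68, 11.48 and 11.49 in siNC replicates 1 to 3, a difference of -0.19 ± 0.07 in the 5 libraries (limma, adjusted p = 0.0645). SEC23B stood at 11.39, 11.43 and 11.32 in siRPL13 replicates 1 to 3, against 11.43, 11.28 and 11.37 in siNC replicates 1 to 3. The groups did not overlap for SEC23A and overlapped for SEC23B.

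The GTPases that start the coat, SAR1A and SAR1B, did not pass either. SAR1A stood at 12.11, 12.18 and 12.21 in siRPL13 replicates 1 to 3, against 12.35, 12.17 and 12.18 in siNC replicates 1 to 3. SAR1B stood at 10.79, 10.93 and 10.56 in siRPL13 replicates 1 to 3, against 10.78, 10.65 and 10.68 in siNC replicates 1 to 3, a difference of 0.16 ± 0.06 in the 5 libraries (limma, adjusted p = 0.0982). SAR1B and SEC24A are neighbours on opposite strands of chromosome 5 and share 385 exon bases. The outer coat genes SEC13 and SEC31A differed by 0.04 and 0.10.

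The COPI coat had 1 of its 8 genes higher (12.5%, beside 8.42% of all genes) and none lower in the 5 libraries. COPA encodes the alpha subunit of the cage, which reads the retrieval signals of membrane proteins (chromosome 1, 160288686 to 160343400, minus strand). It stood at 13.11, 13.05 and 12.70 in siRPL13 replicates 1 to 3, against 12.88, 12.69 and 12.72 in siNC replicates 1 to 3. The first pair was above every siNC library and the third lay near the lowest of them. COPA rose by 0.31 ± 0.06 in the 5 libraries (limma, adjusted p = 0.00670), or to 124% of siNC, and differed by 0.19 ± 0.11 in the 6. It shares 129 exon bases with NCSTN on the opposite strand, which fell by 0.36 (limma, adjusted p = 0.00113), the other direction. The other cage subunits differed by 0.13 (COPB2) and 0.02 (COPE), and the adaptor subunits by 0.10 (COPB1), 0.09 (COPZ1) and 0.00 (ARCN1).

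The gamma subunits COPG1 and COPG2 are alternative parts of that adaptor. COPG1 stood at 12.56, 12.62 and 12.71 in siRPL13 replicates 1 to 3, against 12.74, 12.70 and 12.75 in siNC replicates 1 to 3, a difference of -0.14 ± 0.05 in the 5 libraries (limma, adjusted p = 0.0620). COPG2 stood at 9.57, 9.61 and 9.56 in siRPL13 replicates 1 to 3, against 9.84, 9.64 and 9.68 in siNC replicates 1 to 3, without overlap. COPG2 shares 228 exon bases with MEST on the opposite strand, which fell by 0.53.

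Of the 3 KDEL receptors 2 fell (66.7%, beside 10.7% of all genes), and all 3 had negative differences. KDELR3 had the largest difference of the 50 members (chromosome 22, 38468062 to 38483447, plus strand). It stood at 9.56, 9.50 and 9.88 in siRPL13 replicates 1 to 3, against 9.94, 9.88 and 9.98 in siNC replicates 1 to 3. The library labelled siRPL13 replicate 3 lay at the lower end of the siNC range. KDELR3 fell by 0.40 ± 0.06 in the 5 libraries (limma, adjusted p = 0.00205), or to 75.8% of siNC, and differed by -0.28 ± 0.10 in the 6. It was called in all 13 alternative settings of the 5-library comparison, the only member of which that holds.

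KDELR1 (chromosome 19, 48382570 to 48391553, minus strand) stood at 12.83, 12.90 and 13.18 in siRPL13 replicates 1 to 3, against 13.14, 13.19 and 13.16 in siNC replicates 1 to 3. Again the siRPL13 libraries with lowered RPL13 lay below the siNC libraries and the third among them. KDELR1 fell by 0.30 ± 0.05 in the 5 libraries (limma, adjusted p = 0.00310), or to 81.4% of siNC. Its difference in the 6 was -0.19 ± 0.09. KDELR2 stood at 13.48, 13.51 and 13.47 in siRPL13 replicates 1 to 3, against 13.64, 13.53 and 13.66 in siNC replicates 1 to 3. All 3 siRPL13 libraries were below all siNC libraries, by little, with a difference of -0.11 ± 0.05 in the 5 libraries (limma, adjusted p = 0.174). Differences between the receptors' responses were not tested.

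**Figure D3:**
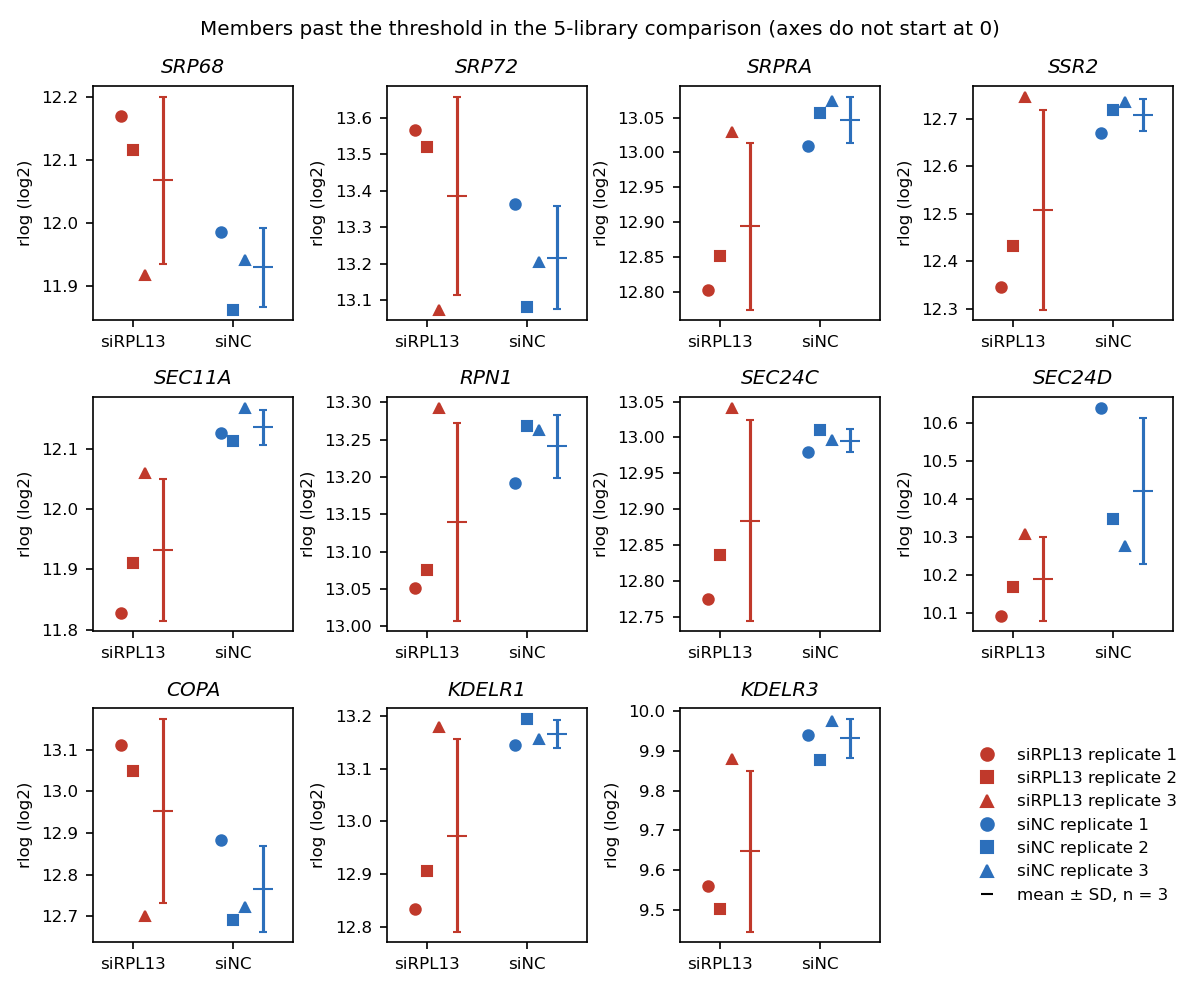
rlog level (vertical axes, log2, not starting at 0) of the 11 members past the threshold in the 5 libraries, with siRPL13 left of siNC, 1 symbol shape per replicate, and mean ± SD of the 3 libraries. The triangle of siRPL13, the library in which RPL13 was not lowered, lies away from the other siRPL13 libraries towards or past the siNC levels in each gene.

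Levels of paralogs were compared per length, as rlog minus the log2 of the exon length in kb, and each family was summed on the linear scale. They were averaged over the 3 libraries of each group, so siRPL13 includes the library without lowered RPL13. The length counts all annotated exons of a gene and not 1 transcript, and the shares and orders depend on it. Without it, siNC means were higher for KDELR2 (13.61) than KDELR1 (13.17) and for SEC23A (11.55) than SEC23B (11.36). KDELR1 made up 52.0% of the summed KDEL receptor level in siRPL13 and 52.9% in siNC, KDELR2 42.0% and 40.6%, and KDELR3 6.05% and 6.55%. The receptor with the largest difference was thus the least abundant. Among the SEC24 paralogs, SEC24C accounted for 76.9% in siRPL13 and 76.7% in siNC. SEC61A1 made up 96.3% and 96.6% of its pair, SEC11A 91.2% and 92.4%, COPG1 88.6% and 88.3%, and SAR1A 80.8% and 82.1%. STT3A and STT3B were closer, with STT3A at 57.1% in siRPL13 and 57.6% in siNC. SEC23B held 67.1% of its pair in siRPL13 and 64.1% in siNC, the widest shift of these pairs, and the shift itself was not tested. The order of the paralogs by this level was the same in siRPL13 as in siNC in each family. Per length, SEC24B averaged 7.40 ± 0.12 in siRPL13 and 7.43 ± 0.09 in siNC (SD, n = 3 each). SEC24A averaged 7.11 ± 0.05 and 7.26 ± 0.08, and SEC24D 6.88 ± 0.11 and 7.11 ± 0.19. Between neighbours in that order, the spans of mean ± SD met or overlapped in siNC and lay apart in siRPL13, and the order was not tested.

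Promoter letters and differences were set side by side for the 44 members with a window. Of the 20 with the core, 1 rose (COPA) and 2 fell (KDELR3 and SEC24C), with a median difference of -0.01 in the 5 libraries. Of the 24 without it, 2 rose and 3 fell, with a median of -0.01 as well. The 6 members with no window, of which 3 fell, had a median of -0.14. Of all genes tested 8.42% rose and 10.7% fell. The classes are small, and differences between them were not tested. KDELR3 and KDELR1 fell and COPA rose, and the stretches above hold the 8-letter element for KDELR3 and COPA and not for KDELR1. The part of the element in these differences was not tested. The other members with that element, COPB1, COPB2, SEC23A, SEC24A, SEC62, SRP19, SSR3 and SSR4, did not pass the threshold.

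**Figure D4:**
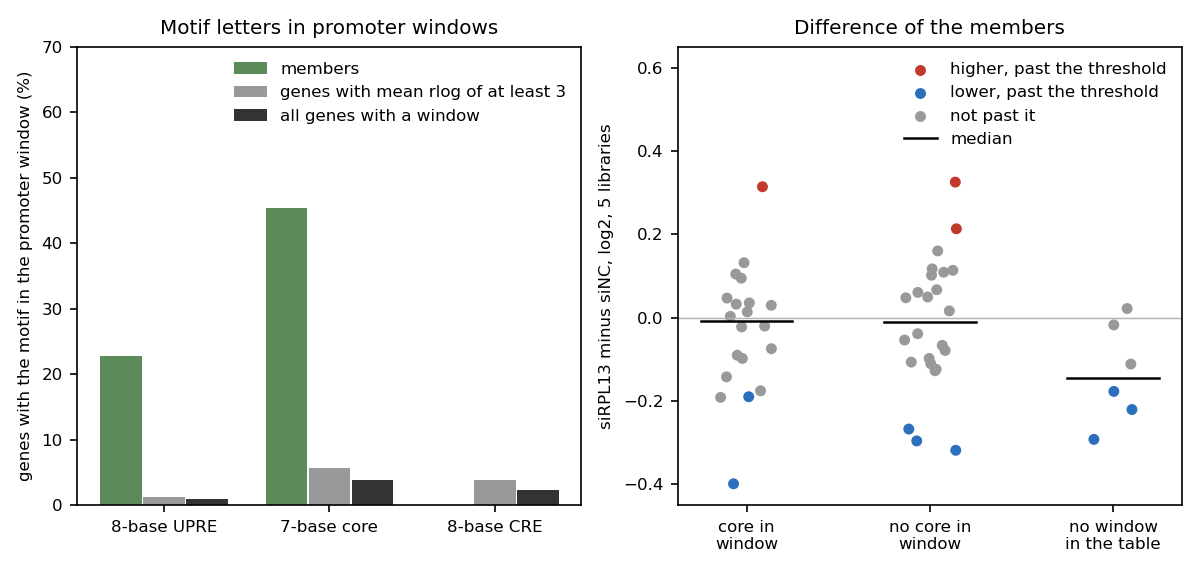
Left, percent of genes whose promoter window holds the 8-base element (UPRE), the 7-base core or the 8-base cyclic AMP response element (CRE), for the members, for genes whose mean rlog reached 3 and for all genes with a window. Right, log2 difference in the 5 libraries of members with the core, without it and with no window (points; the line is the median), where the medians of the first pair of columns are both -0.01.

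Other genes of the same route were read from 7 further lists, of which 129 genes were tested. In the 5 libraries 12 of the 129 rose and 25 fell, or 28.7% together, beside 19.1% of all genes tested (8.42% higher and 10.7% lower). Of the 25 that fell, 12 were among the 14 ER chaperones. Among 24 other translocon and insertion factors 3 rose and 1 fell: EMC6 (0.27) and the tail-anchor ATPase GET3 (0.19) rose, as did CCDC47 (0.17), and EMC3 fell by 0.22. Among 23 other oligosaccharyl transferase and glycan assembly genes 2 rose and none fell, DPM3 by 0.34 and MPDU1 by 0.19, both of the supply of mannose for the glycan precursor. The recruitment and release factors of COPI had 2 of 12 lower, the small GTPases ARF5 (-0.38) and ARF3 (-0.19). Of 28 tethers and SNAREs 4 rose and 3 fell, with USE1 at 0.32 and BET1 at -0.32.

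Among 21 COPII organisers and cargo receptors 2 rose and 4 fell (9.52% and 19%, beside 8.42% and 10.7% of all genes). MIA3, or TANGO1, which helps load collagen, rose by 0.21, and the glycoprotein receptor LMAN1 by 0.19. TMED3 and TMED4, of the p24 family of cargo receptors, fell by 0.35 and 0.31, and TFG, a scaffold at ER exit sites, by 0.33. Of the 7 lists, 4 held genes called in both directions and 3 in 1 direction only.

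ER chaperones, many of which carry the signal that KDEL receptors bind, were lower in 12 of 14 genes with none higher. This share is 85.7%, beside 10.7% of all genes, and the chaperones' median difference was -0.38. HSPA5, or BiP, fell by 0.72 in the 5 libraries and stood at 14.33, 14.45 and 14.93 in siRPL13 replicates 1 to 3, against 15.23, 15.09 and 15.00 in siNC replicates 1 to 3, and HSP90B1 and PDIA4 fell by 0.52 and 0.47 (limma). Of 7 transcription factors of secretory pathway genes, XBP1 stood at 10.92, 10.97 and 11.79 in siRPL13 replicates 1 to 3, against 11.64, 11.87 and 11.76 in siNC replicates 1 to 3. In the 5 libraries XBP1 fell by 0.81, ATF4 by 0.40 and CREB3L2 by 0.20, and CREB3 rose by 0.26. In the 6 libraries XBP1 differed by -0.53 and HSPA5 by -0.54. The differences of HSPA5 and XBP1 were larger than that of any of the 50 members, and the translocation and coat genes had a median near 0 in the same libraries.

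**Figure D5:**
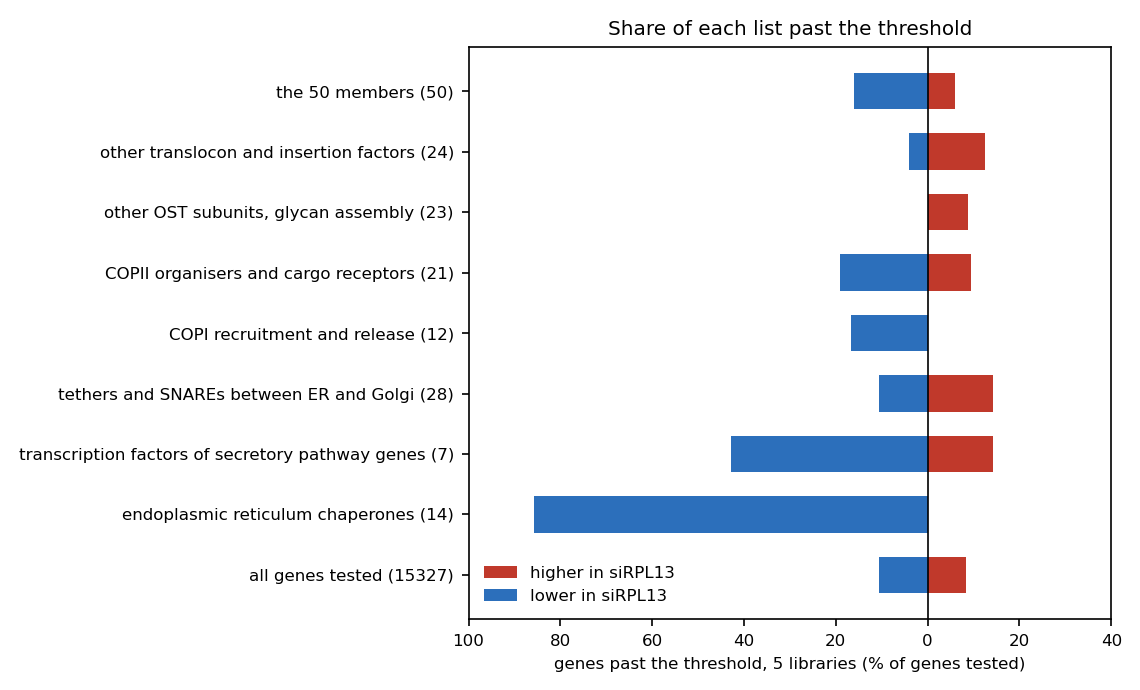
Percent of the genes tested in each list (number in brackets) that passed the threshold in the 5 libraries, higher in siRPL13 to the right and lower to the left of 0. The members' bars of 6% and 16% are near those of all genes tested (8.42% and 10.7%), and 85.7% of the ER chaperones were lower.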

How the data were processed

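Total RNA of 3 siRPL13 and 3 siNC cultures was sequenced. The authors deposited 1 rlog value on the log2 scale for each Ensembl gene in each library. Named in the submitters' processing notes, without roles or settings, are the build GRCh38.p7 and the tools DESeq2, HTSeq 0.6.1p1, TopHat and Trimmomatic 0.33. Such values are corrected for library size and drawn towards the gene's mean, so differences of low genes are understated. Depth per library is unknown, and no count model was used.

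The 15327 genes whose mean rlog reached 3 were tested with limma 3.58.1 in R 4.3.3 (lmFit, two-sided eBayes with its trend option, Benjamini-Hochberg adjustment, threshold 0.05), in 6 and in 5 libraries. Every adjusted p comes from limma. Symbols came from a table of current gene names (20499 of 21429 identifiers) and GENCODE 29 (20608), which gave GRCh38 positions and exon lengths. Promoter sequences are RefSeq's, GRCh38.p14, matched by symbol. The members, lists and motifs were chosen with earlier results of these data known. Values in every library were given for up to 4 called members per role group, all paralog families and RPL13, and up to 3 called genes per direction were named from other lists. Per-library values of SEC61G, HSPA5, XBP1 and the interferon sum were added after they had been seen. FOXRED1, NCSTN, MEST and the pseudogenes were named because they share exons or sequence with members. In all, 23 members share exon bases with another gene, 15 of them with a gene whose mean rlog is at least 8. SPCS1 shares 2698 exon bases with NEK4 and SRP19 shares 368 with REEP5, both on the opposite strand.

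The alternatives were quantile scaling, median centring, library weights, no trend, a robust trend, a minimum mean rlog of 5 or none, the replicate number as a block and leaving out each library. The fits were checked on simulated data with changes of 0.5 and 1 on the log2 scale. In the 6-library setting 76% and 98% of these were recovered, and in the 5-library setting 81% and 100%. The members' differences were smaller than 0.5, and changes of that size were not simulated. No library shared a value with another.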

Additional observations from a re-analysis of the deposited data

How the results depend on the processing

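With 6 libraries, limma called 0 members higher and 0 lower under every alternative except library weights and leaving out siRPL13 replicate 3. Library weights called 5 higher and 14 lower, beside 34.6% of all genes tested. In that fit siRPL13 replicates 1 to 3 had weights of 0.99, 7.19 and 0.16. Leaving out single libraries called 0 to 3 higher and 0 to 8 lower. The upper values came without siRPL13 replicate 3, beside 19.1% of all genes tested. The median difference of the members, -0.04, was -0.00991 under quantile scaling. With 5 libraries, 3 were higher and 8 lower. Quantile scaling called 3 higher and 5 lower (18.8% of all genes tested) and gave a median of 0.0237, against -0.0213. Library weights called 5 higher and 11 lower, beside 28% of all genes tested. Leaving out a siNC library called 3 to 7 higher and 7 to 10 lower, beside 14.7% to 24.5% of all genes. Leaving out siRPL13 replicate 1 or 2 left a single siRPL13 library. For these shifts the cause was not tested. No single member past the threshold changed sign.

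The replicate numbers did not pair the libraries (correlations of deviations 0.08, -0.43 and -0.33 for numbers 1 to 3), and no library correlated best with its own number. With the number as a block the 5-library comparison called 3 higher and 8 lower, beside 19.9% of all genes tested. The 6-library comparison called 0 and 0, and RPN1 was not called under the block. The background of promoters with a mean rlog of at least 3 moved the motif shares as given in the text. Small differences, shrunken rlog values and an unknown depth limit what can be read from single genes.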
